A study of Mus musculus with 4 samples.

Results

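Shear stress response genes are the transcripts by which the endothelial lining of heart and vessels senses and answers flowing blood, and 9 of them were followed here among 23337 genes counted in mouse cardiac cushions. The genes were chosen by symbol: the flow sensors Piezo1, Pkd1 and Pkd2, the transcription factors Klf2 and Klf4, and the effectors Nos3, Thbd, Edn1 and Wnt9b. All 9 had a row (Piezo1 under its older symbol Fam38a) and all 9 passed the low count filter. Cushions are the tissue pads in the atrioventricular canal and outflow tract from which valves are shaped. They were dissected at embryonic day 14.5 from C57BL/6 embryos by the GFP of a Cre reporter, in 2 libraries of wildtype littermates and 2 libraries of mutants of genotype Nfatc1Cre;Brg1F/F. In these mutants Brg1, the motor subunit of SWI/SNF chromatin remodellers and product of Smarca4, is deleted by a Cre expressed from Nfatc1, a gene of the endocardium. Cells that do not descend from the endocardium therefore keep Brg1. The labels do not say whether the wildtype embryos carried the Cre allele or how many embryos a library held, so p-values speak only for the spread among these 4 libraries, and some of it may be technical.

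Endocardium lies directly in the blood stream, and the valves form where flow is fastest and reverses direction. In the best known pathway, sensors in the membrane and on cilia pass the signal through the kinases MEKK3, MEK5 and ERK5 to MEF2 factors, which switch on Klf2 and Klf4. These zinc finger factors in turn raise Nos3 and Thbd and lower Edn1 in cultured endothelium. In the embryonic heart Klf2 is a flow-responsive factor of the endocardium, and Wnt9b is one of its targets there, a ligand that acts on the cushion mesenchyme.

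Promoter windows of Klf2 and Edn1, from 250 bases before to 50 bases after the RefSeq start site (GRCm38.p6), are shown because Klf2 stands at the head of the transcriptional response and Edn1 is the target with the closest agreement between its wildtype libraries. Klf2 lies on the plus strand at chr8:72318812-72319111 and Edn1 on the plus strand at chr13:42301226-42301525. Capitals mark letters of 4 motifs, searched on both strands.
Klf2: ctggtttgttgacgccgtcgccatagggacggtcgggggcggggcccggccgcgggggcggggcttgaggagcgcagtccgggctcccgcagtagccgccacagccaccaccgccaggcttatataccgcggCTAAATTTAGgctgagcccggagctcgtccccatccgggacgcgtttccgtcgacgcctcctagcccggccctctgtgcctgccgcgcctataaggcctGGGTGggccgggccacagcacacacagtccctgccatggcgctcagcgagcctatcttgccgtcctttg
Edn1: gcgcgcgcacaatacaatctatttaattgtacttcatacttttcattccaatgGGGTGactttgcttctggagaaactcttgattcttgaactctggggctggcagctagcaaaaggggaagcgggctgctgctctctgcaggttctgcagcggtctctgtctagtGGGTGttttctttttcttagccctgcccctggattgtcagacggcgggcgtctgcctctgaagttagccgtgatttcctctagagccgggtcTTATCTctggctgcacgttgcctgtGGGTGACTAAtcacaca
The Klf2 window held 1 match to the palindromic MEF2 core, which 3.69% of 32851 promoter windows held. It read CTAAATTTAG, of which the search fixed the first 3 and the last 3 bases and left the middle free, and began 118 bases before the start site. The Edn1 window held 3 matches to CACCC, the core of KLF sites, which 57.5% of windows held. It held 1 match to the GATA factor core AGATAA, which 11.2% of windows held. It also held 1 match to the AP-1 core, for which the search left the sixth base free and which 13.9% of windows held. The AP-1 match read TGACTAA and overlapped the last CACCC match, printed there as GGGTG, its letters on the other strand. CACCC was also found in the windows of Klf2, Piezo1 and Pkd2, with 1 match each. None of these 4 motifs was found in the windows of Klf4, Wnt9b and Pkd1. Nos3 and Thbd had no window in the RefSeq table.

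Gene counts summed to between 14104458 and 22426537 reads per library, and each of the 9 genes had at least 59 reads in every library. For Smarca4, the 2 wildtype libraries measured 251 and 231 CPM (a gene's reads scaled to a common library total), and the 2 mutant libraries 282 and 239 CPM. The log2 fold change was 0.11 ± 0.14 (SE, edgeR adjusted p = 0.979). Whole-gene counts can include reads from outside the deleted part and from cells outside the Cre lineage, so they do not check the genotype labels. Why Smarca4 was not lower in the mutants was not tested. By Xist and 4 Y-linked genes, mutant replicate 2 was male (Xist 13.4 CPM) and the other libraries were female (2047 to 2659 CPM), with a trace of Y-linked reads in wildtype replicate 2. Endothelial markers were present: all 16 were tested, Cdh5 averaged 57.1 and Tek 58.2 RPKM (CPM per kilobase of exon). Heart muscle was present too, with Myl2 at 2059 and Myh7 at 1516 RPKM. In such mixed tissue, fewer cells of a type and less RNA per cell cannot be told apart.

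No shear stress gene passed an adjusted p of 0.05 in the edgeR quasi-likelihood test without pairing (0 of 9; 0.0629% of 14316 tested genes passed, 0.0559% as higher). With the replicate number as a block, which takes same-numbered libraries as littermate pairs although the labels do not say that the number marks them, Thbd, the anticoagulant receptor thrombomodulin, rose (edgeR adjusted p = 0.0056; 0.887% of genes passed that fit, 0.692% as higher and 0.196% as lower). At an unadjusted p under 0.05, 3 of the 9 were higher in the mutants, Thbd, Edn1 and Klf4, and 0 were lower; over all genes 3.88% were higher and 1.90% lower. DESeq2 called 1 of the 9 (Thbd; 0.426% of genes), the edgeR likelihood ratio test 2 (Thbd and Edn1; 1.19% of genes) and limma-voom 0. Both mutant libraries lay above both wildtype libraries in 4 of the 9 (Klf4, Edn1, Pkd1 and Thbd), against 17.0% of all tested genes, and 0 lay below, against 16.3%. The median log2 fold change of the 9 was 0.27, and that of all tested genes -0.00.

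**Figure D1:**
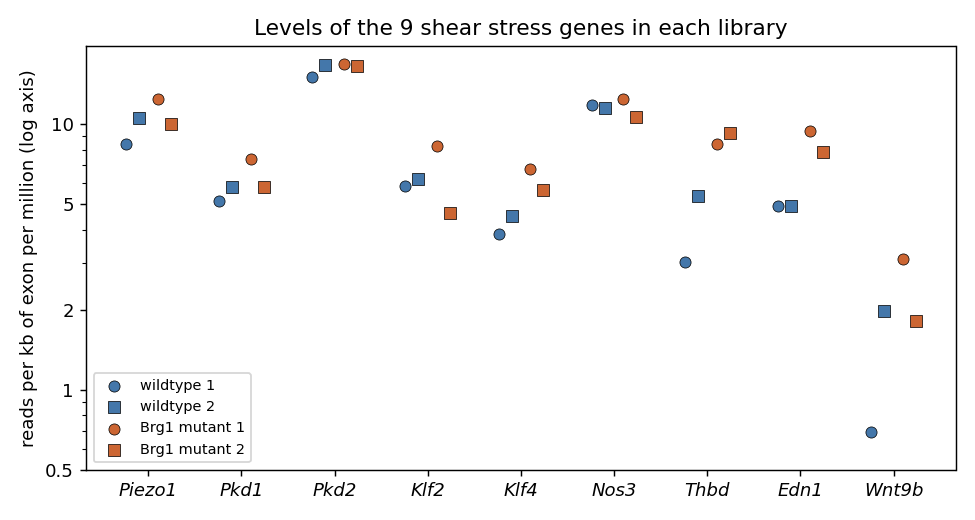
Level of each gene in each library, in RPKM on a log axis, with blue for wildtype, orange for Brg1 mutants, circles for replicate 1 and squares for replicate 2. Orange symbols sit above both blue ones for Klf4, Thbd and Edn1 and by a margin too small to see for Pkd1, while Pkd2 and Nos3 stay nearly level.

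Per exon length, Pkd2 was the most abundant of the 9, at 16.3 ± 0.814 RPKM (SD over 4 libraries), and the range of its libraries did not overlap that of any other. Nos3 followed at 11.6 ± 0.765 RPKM and Piezo1 at 10.3 ± 1.67 RPKM, with overlapping ranges, and the range of Piezo1 also met that of Edn1. Edn1 (6.76), Thbd (6.51), Klf2 (6.23), Pkd1 (6.02) and Klf4 (5.19 RPKM) could not be ordered, since each range overlapped its neighbour's. Wnt9b was lowest, at 1.90 ± 0.983 RPKM, and its range (0.695 to 3.10 RPKM) lay below that of Klf4 but met that of Thbd, whose lowest library had 3.02 RPKM. Most of these genes were thus expressed at middling levels: Pkd2 exceeded 80.5% of tested genes per exon length, Klf2 55.3% and Wnt9b 27.5%.

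Among the sensors, Piezo1, a stretch-gated cation channel of the plasma membrane (chromosome 8, 122481698 to 122551329), measured 83.5 and 104 CPM in the wildtype libraries (replicates 1 and 2, the order kept from here on), against 124 and 99.4 CPM in the mutants. Pkd1, the large receptor-like protein polycystin-1 (chromosome 17, 24549834 to 24596508), measured 89.5 and 101 CPM in wildtype against 129 and 101 CPM in the mutants. In both genes mutant replicate 1 alone stood out, and mutant replicate 2 lay within or next to the wildtype range. Their log2 fold changes were 0.25 ± 0.16 for Piezo1 and 0.27 ± 0.15 for Pkd1 (SE; edgeR adjusted p = 0.954 and 0.936). Pkd2, the cation channel polycystin-2 that pairs with Pkd1 on cilia (chromosome 5, 104459450 to 104505819), measured 153 and 170 CPM in wildtype, with 170 and 168 CPM in the mutants. It was the steadiest of the 9 between mutant libraries, and its log2 fold change was 0.07 ± 0.12 (edgeR adjusted p = 0.985).

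Exons of Pkd1 share 693 bases with Tsc2 on the opposite strand, and those of Piezo1 share 2441 bases with Ctu2. The strand setting of the counting is not given in the sources used here, so reads in these stretches could not be assigned. Tsc2 measured 72.1 to 86.4 CPM and Ctu2 5.17 to 7.38 CPM over the 4 libraries.

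Klf2 (chromosome 8, 72319033 to 72321656), the zinc finger factor most closely tied to steady flow, measured 10.8 and 11.5 CPM in wildtype replicates 1 and 2. Its mutant libraries lay on either side of these, at 15.2 CPM in replicate 1 and 8.55 CPM in replicate 2. The log2 fold change was 0.11 ± 0.26 (SE; edgeR adjusted p = 0.987), and the mutant SD of 4.69 CPM exceeded the difference between the group means, 11.1 and 11.9 CPM. Its direction depended on 1 library, with a log2 fold change of -0.38 without mutant replicate 1 and 0.45 without mutant replicate 2. Klf4 (chromosome 4, 55527143 to 55532466), its close relative in the same response, measured 11.8 and 13.7 CPM in wildtype against 20.6 and 17.2 CPM in the mutants. The Klf4 groups did not overlap, and its log2 fold change of 0.58 ± 0.19 reached an unadjusted p of 0.0123. After adjustment over all genes the edgeR p was 0.575, and 0.428 in the blocked fit.

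Nos3, the endothelial nitric oxide synthase and a standard target of Klf2 (chromosome 5, 24364810 to 24384474), was the least different of the effectors. It measured 48.7 and 47.5 CPM in wildtype, with 51.4 and 43.8 CPM in the mutants, so the wildtype libraries lay between the mutant ones. Its log2 fold change was -0.01 ± 0.15 (SE; edgeR adjusted p = 0.996), and its sign turned with upper-quartile scaling (0.01). Nos3 exons share 294 bases with Atg9b on the opposite strand, which had 15 to 32 reads per library, and 1040 bases with Gm15587, an antisense gene without a row.

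Thbd is the receptor that turns thrombin into an activator of protein C, and it is a single-exon gene (chromosome 2, 148404466 to 148408188). It had the largest log2 fold change of the 9. It measured 11.2 and 19.9 CPM in wildtype against 31.3 and 34.5 CPM in the mutants. Both mutant libraries lay above both wildtype libraries, and the wildtype libraries were farther apart than the mutant ones. The group means were 15.6 ± 6.16 and 32.9 ± 2.24 CPM (SD, n = 2 libraries each), a 2.11-fold difference with a log2 fold change of 1.08 ± 0.25 (SE). The edgeR adjusted p was 0.224 without pairing, and 0.0056 with the replicate block (log2 fold change 1.13 ± 0.21). It was 0.0142 by DESeq2 and 0.234 by limma-voom. Thbd had an adjusted p of 1.4e-04 in the authors' deposited table, where 0.374% of 11507 rows passed, and was the 1 gene of the 9 past 0.05 there. Without wildtype replicate 1, the library with the lowest value, its log2 fold change was 0.72 (edgeR adjusted p = 0.894), and without wildtype replicate 2 it was 1.55 (0.267).

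Edn1, the vasoconstrictor peptide endothelin-1 (chromosome 13, 42301476 to 42307990), had the tightest wildtype values of the 9, 10.5 CPM in both libraries. The mutants measured 20.0 and 16.8 CPM. The groups did not overlap and the log2 fold change was 0.81 ± 0.18 (SE), with an unadjusted p of 0.00151. Adjusted over all genes, the edgeR p was 0.210, and 0.0876 in the blocked fit. In blocked settings added after seeing the data, the adjusted p was 0.198 in edgeR with the authors' filter and 0.972 in DESeq2. The authors' deposited table gives an adjusted p of 0.0631. The Edn1 log2 fold change was 0.81 without either wildtype library, 0.68 without mutant replicate 1 and 0.94 without mutant replicate 2. In each of these fits 1 library stood for a genotype.

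Wnt9b, the endocardial Wnt ligand (chromosome 11, 103727364 to 103749821), was the most variable of the 9 and rested on the fewest reads. It measured 3.14 CPM (59 reads) and 8.96 CPM (142 reads) in wildtype, against 14.0 CPM (318 reads) and 8.19 CPM (116 reads) in the mutants. The groups overlapped, because mutant replicate 2 lay below wildtype replicate 2. Exact Poisson 95% intervals were 2.39 to 4.05 CPM in wildtype replicate 1, 7.55 to 10.6 in wildtype replicate 2, 12.5 to 15.6 in mutant replicate 1 and 6.77 to 9.83 in mutant replicate 2. The intervals of wildtype replicate 2 and mutant replicate 2 overlapped, so these 2 libraries did not differ beyond counting error, while wildtype replicate 1 lay below and mutant replicate 1 above every other interval. These intervals leave out amplification and the variation between embryos. The log2 fold change was 0.90 ± 0.43 (SE; edgeR adjusted p = 0.891), 0.33 without wildtype replicate 1 and 1.83 without wildtype replicate 2. Leaving out mutant replicate 2 gave 1.23, and leaving out mutant replicate 1 gave 0.45. Each fit with a library left out had only 1 library for that genotype, so only its effect size is given.

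The pairs told the 9 genes apart into those that differed alike in both and those that did not. In replicate number 1, all 9 were higher in the mutant than in its wildtype counterpart, from 1.06-fold for Nos3 to 4.45-fold for Wnt9b. In replicate number 2 the ratios ran from 0.744 for Klf2 to 1.73 for Thbd, and 4 of 9 exceeded 1, Pkd1 by only 1.001-fold. Thbd (2.79-fold and 1.73-fold), Edn1 (1.91-fold and 1.60-fold) and Klf4 (1.75-fold and 1.26-fold) were higher in both. Mutant replicate 1 lay above both wildtype libraries in 9 of 9 genes, where 36.2% of all tested genes did, and mutant replicate 2 in 4 of 9 (32.7%). These libraries also differed in sex and depth, whose part in the difference was not tested.

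**Figure D2:**
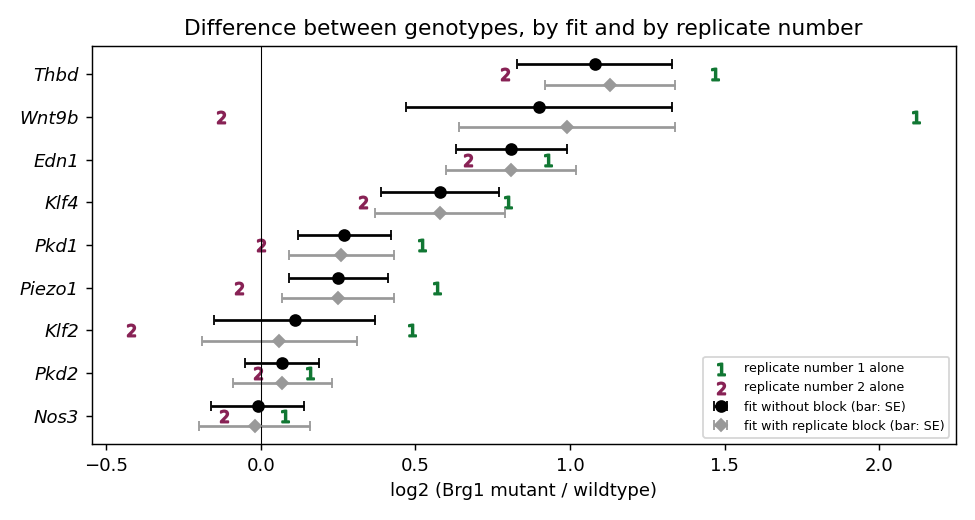
Log2 ratio of mutant to wildtype for each gene: black circles are the edgeR fit without pairing, grey diamonds the fit with the replicate block, bars their SE, and the digits 1 and 2 the ratio within each replicate number. For Thbd, Edn1 and Klf4 both digits lie above 0, while for Wnt9b and Klf2 they lie on opposite sides (2.12 and -0.13, 0.49 and -0.42).

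The cell content of the libraries was read from marker lists. Summed over 16 endothelial markers, wildtype replicates 1 and 2 had 1622 and 1674 CPM and the mutants 1565 and 1581 CPM. Npr3 set this order: without it, a check added after its value was seen, the sums were 1379 and 1446 CPM in wildtype against 1441 and 1450 CPM in the mutants, and the groups overlapped. As a share of the sum over all 16, Thbd came to 0.693% and 1.19% in wildtype and 2.00% and 2.18% in the mutants, and Edn1 to 0.647% and 0.630% in wildtype and 1.28% and 1.06% in the mutants. Over the 15 markers without Npr3 the Thbd shares were 0.815% and 1.38% against 2.17% and 2.38%, and those of Edn1 0.761% and 0.729% against 1.39% and 1.16%. The part of endothelial cell number in these differences was not tested. The median log2 fold change of the list was -0.02, with 0 of 16 past the threshold and, with the replicate block, 1 lower, the natriuretic peptide receptor Npr3 at -0.88 ± 0.12 (SE; edgeR adjusted p = 0.0654, and 0.00646 with the block).

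The leukocyte markers were mostly higher in the mutants, as Thbd was. Their 12 genes summed to 152 and 148 CPM in wildtype against 221 and 253 CPM in the mutants, and none was at 0 reads. The median log2 fold change was 0.86, with 11 of 12 higher in both mutant libraries than in both wildtype libraries (17.0% of all genes). Without pairing 1 of 12 rose (0.0559% of all genes), Ptprc, the leukocyte phosphatase CD45 (1.97 ± 0.18 SE, edgeR adjusted p = 0.0119). With the replicate block 5 of 12 rose (0.692% of all genes): Ptprc, Csf1r, C1qa, Itgam and Adgre1, all genes of macrophages and other leukocytes. The edgeR adjusted p without pairing was 0.110 for Csf1r, 0.145 for C1qa, 0.132 for Itgam and 0.179 for Adgre1. The most abundant per exon length did not pass, with the lysozyme gene Lyz2 at 0.15 ± 0.22 and overlapping groups, and Mrc1, a marker of resident macrophages, at 0.22 ± 0.15 (edgeR adjusted p = 0.979 and 0.954). Thbd is also made by some monocytes, and the part of leukocytes in the values of the shear stress genes was not tested. In the other lists the most abundant genes were Col3a1 (0.10 ± 0.16) and Postn (-0.03 ± 0.15) for mesenchyme, Acta2 (0.17 ± 0.13) and Tagln (0.13 ± 0.23) for smooth muscle, and Tbx18 (-0.06 ± 0.13) and Upk3b (0.00 ± 0.18) for epicardium. For nerve and neural crest Elavl4 stood at -0.21 ± 0.20, and for erythroid cells the most abundant were the embryonic globins Hbb-y (0.28 ± 0.14) and Hba-x (0.64 ± 0.38). These lists had medians of 0.72 for erythroid cells (6 tested), 0.17 for smooth muscle (5), 0.11 for epicardium (6), 0.08 for cushion mesenchyme (10), -0.07 for nerve and neural crest (4) and -0.13 for cardiomyocytes (10). In these lists 0 genes passed the test without pairing; with the block the erythroid anion exchanger Slc4a1 rose (0.98 ± 0.21 SE, edgeR adjusted p = 0.0226) and the atrial peptide Nppa fell (-1.07 ± 0.18, 0.00246).

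**Figure D3:**
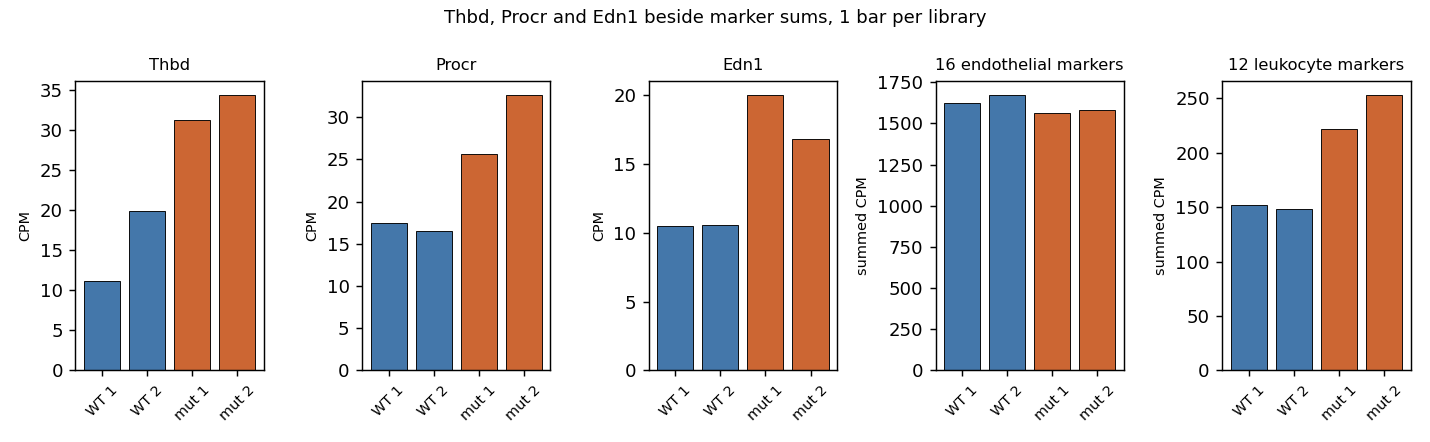
Values in each library as bars from 0: CPM of Thbd, of the protein C receptor Procr and of Edn1, then CPM summed over 16 endothelial and 12 leukocyte markers, with wildtype in blue and mutants in orange. Endothelial sums lie between 1565 and 1674 CPM in all libraries, while the other panels are higher in both mutants.

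The genes around these 9 were read as lists chosen for the pathway, each of which counts the 9 genes that belong to it. Of 17 flow sensors, junction proteins and receptors, 0 passed, either without pairing or with the block, and the median log2 fold change was 0.06. Its most abundant members per exon length were Itgb1, the integrin beta-1 chain, at 0.02 ± 0.15 (SE), and Cdh5, VE-cadherin, at 0.01 ± 0.12. Of 9 tested genes of the primary cilium, on which polycystins sit, 0 passed in either fit, with a median of -0.06. The intraflagellar transport gene Ift20 stood at -0.06 ± 0.19 and the kinesin subunit Kif3a at -0.09 ± 0.14. In the relay from the CCM complex through MEK5 and ERK5 to MEF2, 0 of 15 passed in either fit and the median was 0.07. Heg1, the endothelial receptor that anchors the CCM complex, was above both wildtype libraries in both mutants (233 and 258 against 361 and 281 CPM; 0.38 ± 0.15, edgeR adjusted p = 0.781), and Mef2a was below (-0.16 ± 0.12, 0.962).

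Transcription factors linked to flow, Klf2 and Klf4 among them, gave 0 of 18 past the threshold in either fit and a median of -0.02. The most abundant besides the 9 genes were Klf6 at -0.01 ± 0.13 (SE) and the Notch target Hey2 at -0.09 ± 0.17. Within the KLF family, 16 of 17 genes were tested and the median was 0.11. Without pairing 0 passed, and with the block Klf14 rose, a low-level paralog of Klf2 and Klf4 that measured 2.34 and 1.70 CPM in wildtype against 4.67 and 6.36 CPM in the mutants (1.42 ± 0.31 SE; edgeR adjusted p = 0.207, and 0.0393 with the block). Klf10 stood at -0.22 ± 0.16. In this family 5 members had both mutants above and 2 both mutants below the wildtype libraries, out of 16 tested, beside 17.0% and 16.3% of all genes.

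Of the targets that flow induces in endothelium, 20 were tested. Of these, 0 passed without pairing and 1, Thbd, with the block. The median was 0.11, with 5 of 20 genes above and 4 below in both mutants, close to the 17.0% and 16.3% of all genes. The most abundant were Fn1, fibronectin, at 0.16 ± 0.18 (SE) and Cav1, caveolin-1, at -0.01 ± 0.13. At an unadjusted p under 0.05, 4 of the 20, Thbd among them, were higher and 2 lower, beside 3.88% and 1.90% of all tested genes. They are named after their values were seen. Beside Thbd, the higher ones were Ptgis at 0.58 ± 0.19, Hmox1 at 0.60 ± 0.24 and Adamts1, a matrix protease, at 0.34 ± 0.12 (edgeR adjusted p = 0.593, 0.795 and 0.696). The lower ones were Gja5, the gap junction protein connexin 40, and Aqp1, a water channel, at -0.57 ± 0.21 for Gja5 (edgeR adjusted p = 0.711) and -0.46 ± 0.19 for Aqp1 (0.819). Genes that steady flow lowers, the list that holds Edn1, had a median of 0.24 over 12, with 5 above and 0 below in both mutants (17.0% and 16.3% of all genes). Without pairing 0 of them passed, and with the block 1, Ccl2, a monocyte chemokine, rose (2.17 ± 0.32; edgeR adjusted p = 0.0654, and 2.1e-04 with the block). In the same list Ankrd1, a YAP target also made by heart muscle, was at 0.24 ± 0.18 and Ece1 at -0.15 ± 0.14.

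**Figure D4:**
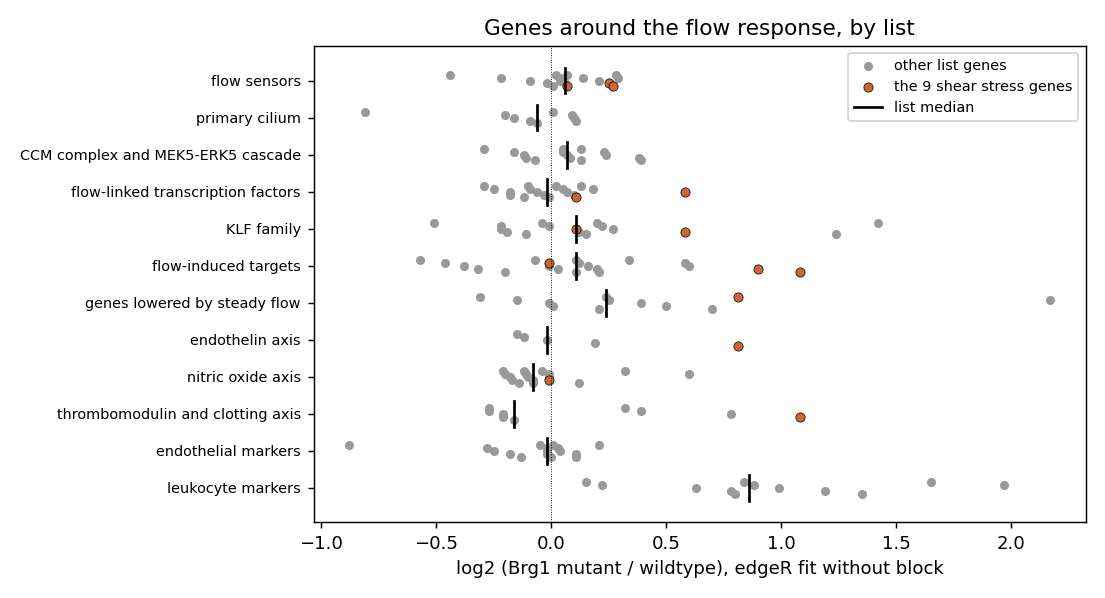
Log2 ratio of mutant to wildtype from the edgeR fit without pairing, 1 point per tested gene, by list, with the 9 shear stress genes in orange and a black bar at each list's median. Medians run from -0.16 to 0.24 in the pathway lists and reach 0.86 in the leukocyte list.

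The partners of each effector were compared with the effector itself. In the endothelin axis, 1 of 5 tested genes, Edn1, had both mutants above the wildtype libraries, close to the 17.0% of all genes. In this axis 0 passed in either fit. Ece1, which cleaves the endothelin precursor, was at -0.15 ± 0.14 (SE), and the receptor Ednrb at -0.02 ± 0.21. Edn2 and Edn3, the sister ligands, stayed below the low count filter. In the nitric oxide axis 0 of 17 passed in either fit and the median was -0.08, close to Nos3; the chaperones Hsp90ab1 and Hsp90aa1, which support the synthase, were at -0.04 ± 0.15 and -0.14 ± 0.17. In the thrombomodulin and clotting axis, 0 of 9 tested genes passed without pairing and 1, Thbd, with the block. The most abundant members were lower or level, with the thrombin receptor F2r at -0.21 ± 0.13 and Tfpi, the tissue factor inhibitor, at -0.27 ± 0.16. Procr, the receptor that presents protein C to thrombomodulin, singled out after its values were seen, measured 17.4 and 16.5 CPM in wildtype against 25.6 and 32.6 CPM in the mutants (0.78 ± 0.18; edgeR adjusted p = 0.224, and 0.0766 with the block). The groups of Procr did not overlap, as in Thbd.

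Profiles over the 4 libraries were compared by the distance between log2 CPM values centred on each gene's mean, among 139 genes of the pathway and endothelial lists. With 4 libraries this is a description of these samples. The nearest to Klf2 were the gap junction gene Gja4 (distance 0.21, r = 0.93) and the kinase gene Map2k5, which encodes MEK5 (0.23, r = 0.97). The nearest to Edn1 were Klf4 (0.27, r = 0.97) and Hmox1, heme oxygenase (0.32, r = 0.93). Klf4 was closest to Pdgfb (0.19, r = 0.95) and Heg1 (0.21, r = 0.96). Piezo1 and Pkd1 were near each other (0.11, r = 0.96), with Notch1 nearest to Piezo1 (0.10, r = 0.99) and Heg1 as near to Pkd1 (0.11, r = 0.98). Pkd2 was closest to Tie1 (0.05, r = 0.98) and Prkg1 (0.11, r = 0.68), and Nos3 to Map3k2 (0.07, r = 0.91) and Plxnd1 (0.08, r = 0.89). Thbd and Wnt9b, whose levels varied most, lay farthest from their neighbours, since this distance grows with the size of the differences. The nearest to Thbd was Ptgis, prostacyclin synthase, at a distance of 0.59 but with the highest correlation over the 4 libraries (r = 1.00), then Edn1 (0.72, r = 0.85). The nearest to Wnt9b were Thbd (0.80, r = 0.85) and Plau, the urokinase gene (0.82, r = 0.92).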

How the data were processed

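The authors deposited raw read counts per gene symbol for the 4 libraries. The submitters' processing notes name mm10 and the tools TopHat2, Bowtie2, HTSeq, SAMtools and edgeR. Their versions, the annotation and the strand of counting were not stated in any source used here. Reads outside any feature, 51.8% to 54.4% of all, and the other rows that name no gene were left out. The authors also deposited a genotype comparison by edgeR that lists log2 fold changes (wildtype over mutant, given here as mutant over wildtype), a likelihood ratio score, p-values and, for some rows, a fold change ratio.

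The main test was edgeR 4.0.16 under R 4.3.3 (TMM scaling, filterByExpr, quasi-likelihood F test, Benjamini-Hochberg adjustment over all 14316 tested genes, threshold 0.05), with DESeq2 1.42.0 and limma-voom (limma 3.58.1) as alternatives. The fits were also run on simulated counts, with changes larger than those of the shear stress genes and no replicate effect. That run does not show how the fits behave for changes of the size seen here or for pairs. CPM uses TMM-scaled library sizes, at which 3 reads correspond to 0.132 to 0.212 CPM. Profiles over libraries were compared as log2 CPM with 2 as the prior count. Standard errors were derived as the log2 fold change over the square root of F. RPKM divides CPM by the GENCODE M21 exon length (mm10); 22834 of 23337 rows matched by symbol or older symbol.

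The series describes pairs of mutants and littermates and both genotypes carry replicate numbers 1 and 2. Over genes, which are no independent replicates, the deviations from the group mean of libraries sharing a number had a correlation of 0.144. The numbers were taken to mark these pairs, which the labels do not state. Over the shear stress genes, the authors' deposited log2 fold changes differed by at most 0.013 from the fit with the replicate block. Their largest difference from the fit without it was 0.096, so by this measure they lay closer to the blocked fit. Over 11504 rows the median difference was nearly the same, 0.004 with the block and 0.0049 without it. These differences bear on how the authors fitted the data, and do not show that the numbers mark litters. Blocked values are given where they change a call.

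The genes, lists and the rule for naming genes were chosen with earlier results of these data known. Named were all 9 genes, from each pathway list the genes past the threshold with or without the block, from every list the 2 others of highest RPKM, and for each of the 9 the 2 genes of nearest profile. Marker genes past the threshold were added after their values were seen. 1 marker gene that the rule names is not reported here. Promoter windows are from RefSeq (GRCm38.p6) and held 7 of the 9 genes.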

Additional observations from a re-analysis of the deposited data

How the results depend on the processing

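The count of 9 genes past the threshold, and of 0 shear stress genes, became 127 and 1 with the replicate block, 236 and 3 without a low count filter, 61 and 1 with DESeq2, and 171 and 2 with the edgeR likelihood ratio test. In settings added after seeing the data it became 30 and 1 with the replicate block and the authors' filter, and 30 and 1 with the replicate block in DESeq2. Leaving out 1 library gave 0 (wildtype replicate 2) to 396 (mutant replicate 2) genes, with 4 without wildtype replicate 1 and 163 without mutant replicate 1, and 0 to 3 shear stress genes: 0 without either wildtype library, 1 (Thbd) without mutant replicate 1 and 3 (Thbd, Edn1 and Wnt9b) without mutant replicate 2. Where 1 library stood for a genotype, its variation was taken to equal that of the other genotype. The count of shear stress genes with mutants above both wildtype libraries ran from 4 without mutant replicate 1 to 9 without mutant replicate 2. Of 126 values of single genes over 14 settings, 108 kept direction and side of the threshold, 13 passed it, for Thbd, Edn1 and Wnt9b, and 5 changed sign: Klf2 (-0.38 to 0.45 over the libraries left out, negative without mutant replicate 1), Nos3 (0.01 with upper-quartile scaling, and -0.13 to 0.10 over the libraries left out, positive at 0.01 without wildtype replicate 1 and 0.10 without mutant replicate 2) and Pkd2 (-0.00076 without wildtype replicate 1, to 0.15 without wildtype replicate 2). The cause was not tested. With 2 libraries a group, calls near the threshold depend on the test: the Edn1 adjusted p without pairing was 0.210 in the edgeR quasi-likelihood test, 0.0194 in the likelihood ratio test and 0.0122 without a low count filter.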
